A study of Mus with 6 samples.

Results

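Immediate early genes were followed in leukaemic cells with and without the transcription factor Klf4 through 10 members: Egr1, Fos, Fosb, Jun, Junb, Jund, Ier2, Atf3, Dusp1 and Zfp36. Every probe that the platform annotation names for 1 of these genes was taken from the deposited value table. That gave 10 of the 19057 gene symbols in the annotation and 11 of 45281 probes, 2 for Junb and 1 for each of the other 9 genes.

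The data are 6 Illumina mouse bead arrays hybridised in 1 colour. The cells were the GFP+ fraction of CML (chronic myeloid leukaemia) bone marrow that lacked lineage markers and carried Sca-1 and c-Kit. This LSK phenotype is that of stem and early progenitor cells, and the labels call the samples LSC, a common short form of leukaemia stem cell. Both groups carried BCR-ABL p210, the fusion kinase of the disease, and were taken 14 days after bone marrow transplantation, with C57BL/6 as the labelled strain. There were 3 wild-type (WT) arrays and 3 Klf4-deficient arrays, grouped by sample title. The sources used here do not say how or in which cells Klf4 was removed, how old the mice were, or whether each array held RNA of a separate mouse. A p-value therefore speaks only for the spread among these arrays, part of which may be technical. Since the RNA is from bulk samples, fewer cells of a type and less RNA per cell cannot be told apart.

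Immediate early genes are transcribed soon after a growth factor, cytokine or stress signal, without new protein synthesis. Kinases of the RAS to MAP kinase route act on SRF and its ETS-family partners at their promoters, and BCR-ABL is known to feed into that route. Some of the products are transcription factors, among them EGR1 and the FOS and JUN proteins that pair to form AP-1, and others, such as DUSP1 and ZFP36, shut the response down.

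Between 7082 and 7214 probes per array lay above an intensity of 32, the floor used here, under which probe values were not told apart. The 18270 probes above 32 on at least 1 array were tested. Across them Pearson's r between WT replicate 3 and each of the other 5 arrays was 0.29 to 0.30, while the other 5 gave 0.66 to 0.72 among themselves; probes are not independent replicates. WT replicate 3 also held 3320 of the 8545 tested probes that exceeded 32 on a single array. Results that rest on that array are given with and without it. The number of arrays limits the precision of every value. Klf4 itself gave no check of the labels above the floor: of its 3 probes only ILMN_2999439 exceeded 32, at 51.9 in WT replicate 2. Under the floor, ILMN_1241903 read 8.1, 3.2 and 6.6 in the WT arrays against -0.3, -5.9 and -2.5 in the Klf4-deficient arrays. On ILMN_1221264 the groups overlapped. Where the Klf4 probes lie with respect to the deletion was not analysed here. The LSK markers were seen unevenly. Gata2 exceeded 32 on every array except WT replicate 3, where it read -1.9. The 3 Kit probes differed in which arrays they read above 32, Cd34 exceeded 32 only in Klf4-deficient replicate 3 (43.2), and Ly6a had no probe named in the annotation. Over a list of 10 LSK and early progenitor genes, 8 with a probe, readings above 32 were summed per array. The sums were 450.9 to 1694.8 in WT and 684.2 to 1091.6 in Klf4-deficient arrays. Without WT replicate 3 the sums of the 2 remaining WT arrays were 1123.5 to 1694.8, so every Klf4-deficient sum was lower. That separation was narrow, at 1123.5 in WT replicate 1 against 1091.6 in Klf4-deficient replicate 1. Without a single Flt3 reading of 36.4, WT replicate 1 would lie below Klf4-deficient replicate 1. The part of LSK and early progenitor content in the member values was not tested.

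Signal was present for some of the members. Over the whole table, 18270 of 45281 probes exceeded 32 on at least 1 array. Of the 11 member probes, 6 did so and entered the test, covering Egr1, Fos, Junb, Dusp1 and Zfp36. The other 5, the single probes of Fosb, Jun, Jund, Ier2 and Atf3, lay below 32 on all 6 arrays. Egr1 was the 1 member above 32 on all 6 arrays, a state shared by 6.55% of the probes tested.

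**Figure D1:**
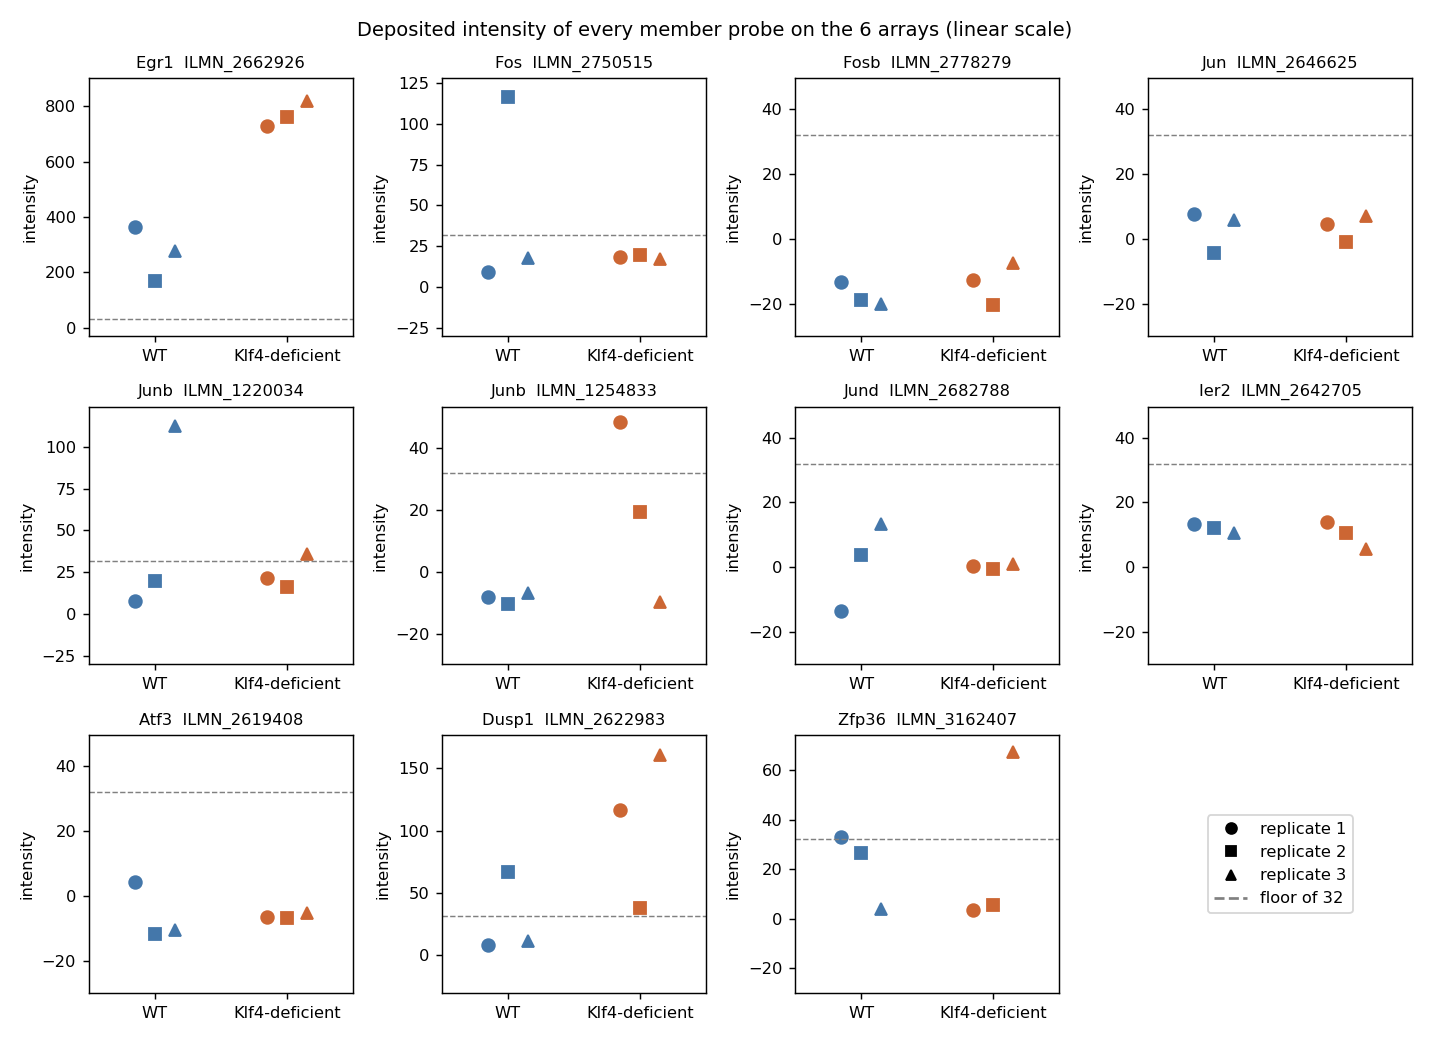
Deposited intensity (linear scale, 1 panel per member probe) in WT and Klf4-deficient arrays, with the replicate number as the symbol and the floor of 32 as a dashed line. In Egr1 all Klf4-deficient arrays (728.9 to 818.6) lie above all WT arrays (169.3 to 363.4), whereas the remaining panels overlap or stay below 32.

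Egr1, a zinc finger transcription factor of the early growth response family, was higher in every Klf4-deficient array than in any WT array. Its probe, ILMN_2662926, read 363.4, 169.3 and 276.2 in WT replicates 1 to 3 and 728.9, 760.8 and 818.6 in Klf4-deficient replicates 1 to 3. The groups did not overlap, and the Klf4-deficient arrays lay closer together than the WT arrays: the mean was 270 ± 97.2 (SD, n = 3) in WT and 769 ± 45.5 (SD, n = 3) in Klf4-deficient cells. WT replicate 3 lay between the other WT arrays. The difference of the mean log2 values was 1.58 ± 0.32 (SE), a 2.99-fold higher geometric mean with a 95% interval of 1.70-fold to 5.26-fold.

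The Egr1 difference did not pass the test over all probes (limma adjusted p = 0.71). It ranked 59 by unadjusted p (0.0039 in limma) among the 18270 probes. An exact two-sided permutation test of this 1 value gave p = 0.1, the smallest that 3 against 3 arrays allow. The difference kept its direction in all 17 alternatives, from 1.28 without WT replicate 2 to 1.83 without WT replicate 1, and was 1.63 without WT replicate 3. The unadjusted p was 0.082 with an offset in place of the floor and 0.17 with trend and robust eBayes, and the adjusted p lay between 0.43 and 0.92 over the alternatives. Of the 1197 probes above 32 on all 6 arrays, 91, or 7.6%, differed by at least as much as Egr1 in either direction, and 45, or 3.76%, had every Klf4-deficient array above every WT array, against 8.69% without overlap in either direction.

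The FOS members, AP-1 subunits that bind DNA as pairs with JUN proteins, showed signal on a single array. Fos, on probe ILMN_2750515, read 9.1, 116.2 and 17.7 in the WT arrays against 18.6, 19.9 and 16.9 in the Klf4-deficient arrays. WT replicate 2 was the 1 array above 32. A single array above 32 was the state of 46.8% of the probes tested, with WT replicate 2 as that array for 6.45%. With values raised to 32 the difference was -0.62 ± 0.56 (log2, SE, 95% interval -2.05 to 0.81, limma adjusted p = 0.71). It gives no bound on the fold, since 5 of 6 arrays were below the floor. The value was -0.48 with an offset of 16, -0.29 with a floor of 64 and -0.93 without WT replicate 1 or without WT replicate 3, and without WT replicate 2 no array was left above 32. Fosb, on ILMN_2778279, read -13.2, -18.8 and -20 in the WT arrays against -12.8, -20.4 and -7.4 in the Klf4-deficient arrays, so its values were negative on every array.

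The JUN members, which form AP-1 with each other or with FOS proteins, were at or near the floor. Junb had 2 probes that did not give the same picture. Probe ILMN_1220034, annotated to NM_008416, read 8.1, 19.9 and 112.5 in the WT arrays against 21.9, 16.1 and 35.8 in the Klf4-deficient arrays. It was highest in WT replicate 3, the array that stood apart, and exceeded 32 in 1 further array. The difference of -0.55 ± 0.55 (log2, SE, 95% interval -1.95 to 0.85, limma adjusted p = 0.71) became 0.054 without WT replicate 3, and it was -0.85 without WT replicate 1 or 2.

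Probe ILMN_1254833 of Junb, annotated to AK044253, read -8.2, -10.5 and -6.9 in the WT arrays against 48.6, 19.4 and -9.7 in the Klf4-deficient arrays. Klf4-deficient replicate 1 alone exceeded 32, and with values raised to 32 the difference was 0.20 ± 0.23 (log2, SE, 95% interval -0.38 to 0.78, limma adjusted p = 0.71). This value was 0.63 with a floor of 16, 1.05 with an offset of 16 and 0.30 without Klf4-deficient replicate 2 or 3. Jun, the founding member of the family, read 7.5, -4.5 and 5.9 in the WT arrays against 4.6, -1.1 and 7 in the Klf4-deficient arrays on ILMN_2646625. Jund read -13.6, 3.8 and 13.5 in the WT arrays against 0.3, -0.4 and 1 in the Klf4-deficient arrays on ILMN_2682788. Neither came near 32 on any array, so a difference in Jun or Jund was not detectable at this signal.

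Ier2 and Atf3 were also below the floor throughout. Ier2, a nuclear protein of the early response, ranged from 10.6 to 13.2 in WT and from 5.7 to 13.9 in Klf4-deficient arrays on ILMN_2642705. Atf3, a stress-induced factor of the ATF family that can pair with JUN proteins, ranged from -11.8 to 4.1 in WT and from -6.8 to -5.3 in Klf4-deficient arrays on ILMN_2619408.

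Of the feedback members, Dusp1 exceeded 32 on all Klf4-deficient arrays but not apart from WT. It encodes a nuclear phosphatase that switches off MAP kinases. Its probe, ILMN_2622983, read 8.2, 67 and 11.2 in the WT arrays against 116.2, 37.9 and 160.3 in the Klf4-deficient arrays. All Klf4-deficient arrays and 1 WT array exceeded 32, and the groups overlapped because WT replicate 2 lay above Klf4-deficient replicate 2. The difference was 1.12 ± 0.65 (log2, SE), with a limma adjusted p of 0.71 and a two-sided exact permutation p of 0.2. As a fold, the Klf4-deficient geometric mean was 2.18-fold higher, with a 95% interval of 0.693-fold to 6.83-fold. WT replicates 1 and 3 were raised to 32, so the 2.18-fold is a lower bound. The difference depended on single arrays and on the floor, at 0.70 without Klf4-deficient replicate 3, 1.74 without Klf4-deficient replicate 2, 1.79 with a floor of 16 and 0.71 with a floor of 64, all in the same direction.

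Zfp36 encodes tristetraprolin, which binds AU-rich elements and promotes the decay of short-lived transcripts. On ILMN_3162407 it read 32.9, 26.4 and 3.9 in the WT arrays against 3.5, 5.7 and 67.3 in the Klf4-deficient arrays. The highest and the lowest values were both in the Klf4-deficient group, and 1 array of each group exceeded 32. The difference of 0.34 ± 0.35 (log2, SE, 95% interval -0.53 to 1.22, limma adjusted p = 0.71) became -0.013 without Klf4-deficient replicate 3 and -0.076 with an offset of 16. It was 0.52 without Klf4-deficient replicate 1 or 2.

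**Figure D2:**
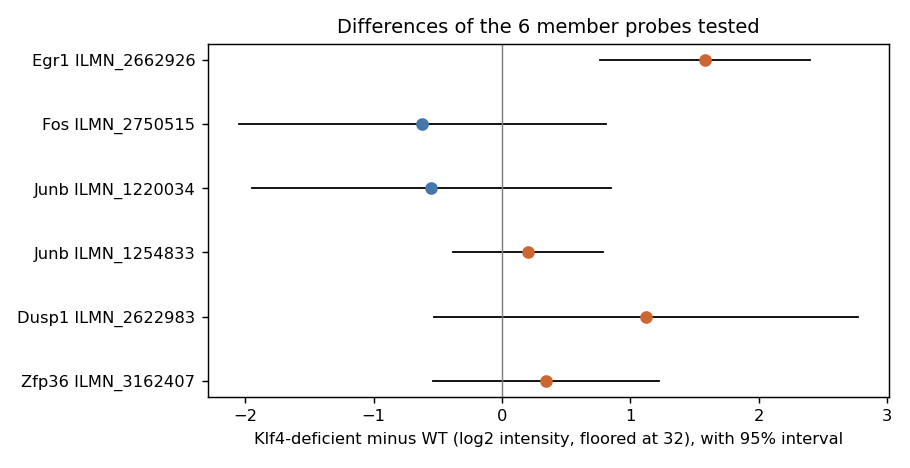
Difference between Klf4-deficient and WT arrays (log2 intensity, horizontal axis) for the 6 member probes tested, as a point with its 95% interval from limma. The interval of Egr1, 0.76 to 2.40, lies above 0, and the intervals of the other 5 probes include 0.

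Counted over the members, 0 of the 6 probes tested passed limma at an adjusted p under 0.05, as did 0 of all 18270 probes (0%). At an unadjusted p under 0.05 stood 371 probes (2.03%), 266 of them higher in Klf4-deficient arrays (1.46%) and 105 lower (0.575%), and 1 member probe, that of Egr1. Groups that did not overlap, with the Klf4-deficient arrays higher, were found for 389 probes (2.13%) and for 1 member, again Egr1. No member probe had non-overlapping groups with WT higher, against 0.958% of all probes. Without WT replicate 3, Egr1 was again the 1 of 6 member probes under an unadjusted p of 0.05, where 3.56% of 14950 probes were. A count of 1 in 6 is too small to set the members apart from the table as a whole.

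**Figure D3:**
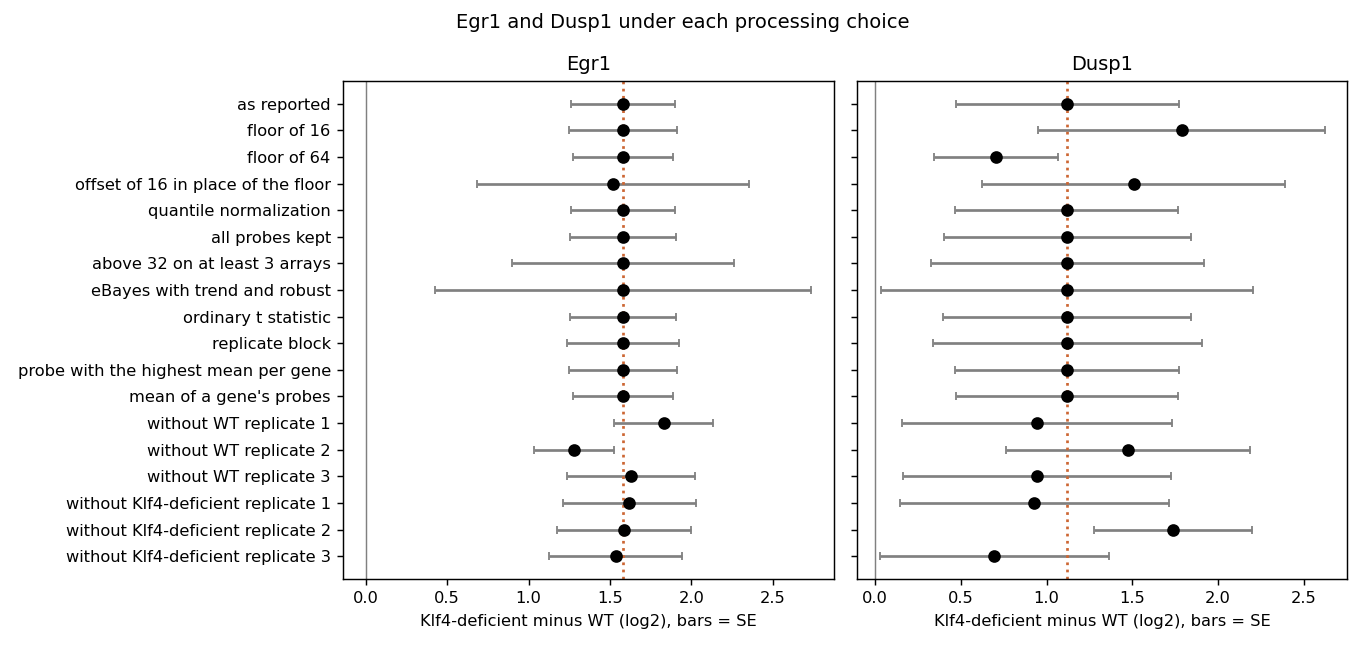
Difference (log2, points, with SE bars) of Egr1 and Dusp1 between Klf4-deficient and WT arrays as reported (dotted line) and under each of 17 alternatives. Egr1 stays between 1.28 and 1.83, whereas Dusp1 moves between 0.70 and 1.79.

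The members did not follow one array order. Egr1, Dusp1 and Zfp36 were highest in Klf4-deficient replicate 3, where 4 of the 6 tested member probes exceeded 32. Fos was highest in WT replicate 2, Junb in WT replicate 3 on one probe and in Klf4-deficient replicate 1 on the other. The neutrophil genes S100a8 and S100a9 were also highest in Klf4-deficient replicate 3, at 505.9 and 986.3. Elane (9.3) and Mpo on ILMN_1249030 (1422.1) and ILMN_2600421 (320) were instead at their lowest of the 6 arrays there. The other Mpo probes were neither highest nor lowest on it. The neutrophil list, 10 genes of which 9 exceeded 32, summed to 3904.8 on that array. Such sums count readings above 32 alone. The list's sums were 2986.8 to 4460.2 in Klf4-deficient and 4332.8 to 8844.6 in WT arrays, the latter 4332.8 to 5308.7 without WT replicate 3. The part of such cells in the member values was not tested.

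Among the marker lists of other cell types, the sums of the T and NK cell list did not overlap and were higher in Klf4-deficient arrays. Over its 6 genes, each above 32 on at least 1 array, the sum of readings above 32 was 72.1 to 96.3 in WT and 141.8 to 171.6 in Klf4-deficient arrays, and 72.1 to 94 in WT without replicate 3. Of the defining markers, Cd3e exceeded 32 only in WT replicate 3 (56.3) and Cd3g only in Klf4-deficient replicate 2 (51.6), while a Cd8a probe read 72.1, 55.5 and -5.7 in the WT arrays against 56.6, 107.3 and 141.8 in the Klf4-deficient arrays. Nkg7 exceeded 32 only in Klf4-deficient replicate 1 (115), where it and the Cd8a probe made up the sum of 171.6. Without that Nkg7 reading this array would lie below WT replicate 1, so the separation of the sums rested on it. On the erythroid list, 5 of 6 tested probes were higher in Klf4-deficient arrays, as were 8374 of all 18270 probes tested. Of those 5 erythroid probes, 2 did not overlap, where 2.13% of all probes tested were higher without overlap. Alas2, the first enzyme of haem synthesis in red cell precursors, read 8.8, 26.1 and -15 in the WT arrays against 172, 114.1 and 160.7 in the Klf4-deficient arrays. Its Klf4-deficient geometric mean was at least 4.58-fold higher, rank 2 by unadjusted p, and did not pass the threshold (limma adjusted p = 0.59). Car1, a carbonic anhydrase of red cells, read 624.1, 738.3 and 16.5 in the WT arrays against 1301.1, 793.8 and 1006.2 in the Klf4-deficient arrays. Car2 on ILMN_2606746 read 412.9, 373.9 and -7 in the WT arrays against 184.3, 269.3 and 227.3 in the Klf4-deficient arrays. Without WT replicate 3 its Klf4-deficient readings were all lower, while those of Alas2 and Car1 stayed higher without overlap. Car2 on ILMN_2603504 was the 1 tested probe of the list that was lower, at -0.42 ± 0.53 (log2, SE). The erythroid sums nevertheless overlapped, at 1560.7 to 3750.5 in WT, 2480.3 to 3750.5 without WT replicate 3, and 3537.5 to 4075.3 in Klf4-deficient arrays. The monocyte and macrophage sums also overlapped, at 33.5 to 574.1 in WT, 33.5 to 248.9 without WT replicate 3, and 94.1 to 152.4 in Klf4-deficient arrays. So did those of the 5 stroma and endothelium genes, at 47.5 to 726.9 in WT, 47.5 to 113.9 without WT replicate 3, and 0 to 50 in Klf4-deficient arrays, with Cdh5 and Col1a1 not above 32 on any array. When all readings above 0 were summed, the stroma and endothelium sums were 136.1 to 734.5 in WT and 91.3 to 109.9 in Klf4-deficient arrays. Those sums did not overlap, nor did they without WT replicate 3 (136.1 to 163.8 in WT). Since the sums of readings above 32 overlapped, that separation rests on readings at or below 32, which are not told apart here. The part of these cells in the Egr1 difference was not tested.

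The probes whose pattern over the 6 arrays lay nearest to that of Egr1 were sought among 833 named probes above 32 on all arrays. Likeness was the root mean square distance between log2 values after each probe was centred on its own mean. Bloc1s2, a subunit of the BLOC-1 complex of lysosome-related organelles, was nearest at 0.40. It read 173, 38.5 and 97.9 in the WT arrays against 168.4, 174.8 and 209 in the Klf4-deficient arrays, so its groups overlapped. Eif5, a translation initiation factor, followed at 0.44 with 148.6, 164.8 and 104.9 in the WT arrays against 365.8, 363.4 and 412 in the Klf4-deficient arrays. Ptprs, a receptor-type tyrosine phosphatase, came next at 0.46, with 10678, 5297.6 and 5503 in the WT arrays against 12903.7, 11184.3 and 11184.3 in the Klf4-deficient arrays. The median distance over all candidates was 1.21. Eif5 and Ptprs separated the groups as Egr1 did and Bloc1s2 did not. Since these probes were picked for likeness to Egr1 over the same 6 arrays, separation in that direction follows largely from the choice. The Eif5 difference was 1.47 ± 0.23 and that of Ptprs 0.79 ± 0.33 (log2, SE), each with a limma adjusted p of 0.71.

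A further 6 lists of related genes were read in the same fit. They held 120 genes, of which 107 had a probe and 73 a probe above 32, with 115 probes tested. None of these probes passed limma at an adjusted p under 0.05. An unadjusted p under 0.05 was reached by 3 probes, or 2.61%, and the groups did not overlap for 6 probes, 4 with Klf4-deficient arrays higher and 2 lower, or 5.22% against 3.09% of all probes tested. Without WT replicate 3 the same shares were 3.96% of 101 probes at an unadjusted p under 0.05 and 6.93% without overlap, against 3.56% and 8.47% of all probes. The signs and medians of the lists below are from all 6 arrays only. Over all 18270 probes tested, 8374 differences were positive. Their median was -0.055, and 0.055 without WT replicate 3.

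**Figure D4:**
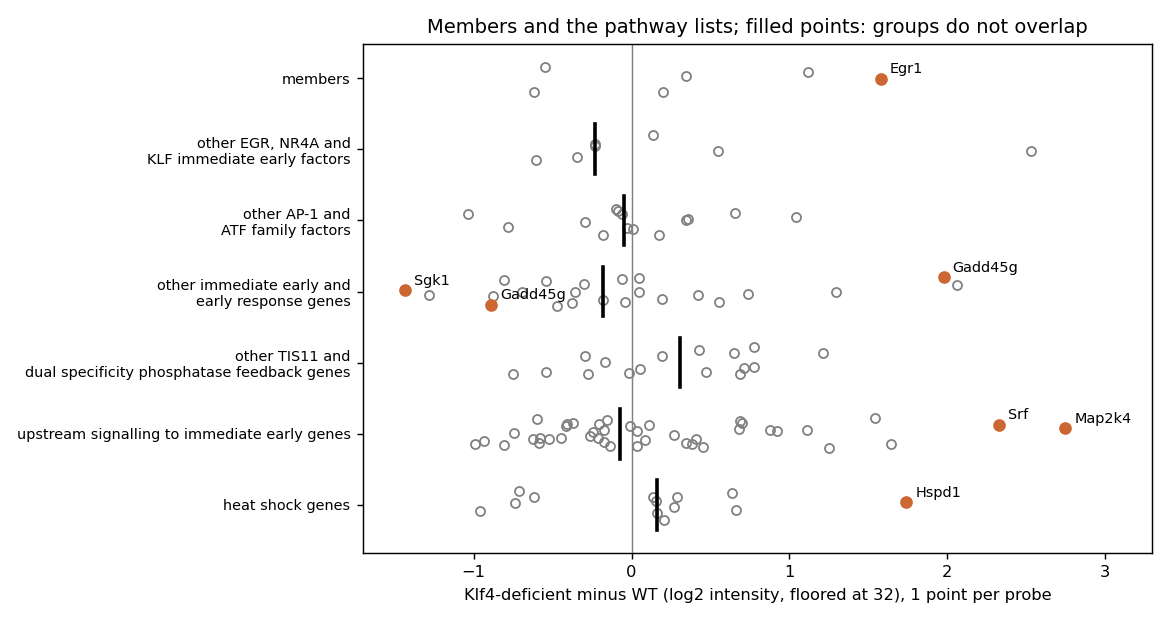
Difference between Klf4-deficient and WT arrays (log2 intensity, 1 point per probe tested) for the members and for 6 lists of related genes, with the median of each of the 6 lists as a bar, filled points where the groups do not overlap, and vertical offsets only to part the points. Egr1 is the 1 filled member, and Map2k4, Srf, Hspd1, Sgk1 and both Gadd45g probes are the filled points of the lists.

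The closest relatives of the members were mostly below the floor. Of 13 other genes of this class, the EGR, NR4A and KLF families with Myc, Maff and Csrnp1, 8 had no probe above 32, among them Egr3, Egr4, Nr4a1, Nr4a2, Nr4a3 and Klf2. Over the 7 probes tested, 3 differences were positive and 4 negative, with a median of -0.23 (log2) against -0.055 over all probes tested. Klf6, a zinc finger factor induced by many stimuli, had the smallest p of this list. It read 206, 426.8 and 23.9 in the WT arrays against 2347.6, 382.2 and 603.7 in the Klf4-deficient arrays, so the groups overlapped, and its difference of 2.53 ± 1.20 (log2, SE, limma adjusted p = 0.71) was 1.46 without WT replicate 3. Egr2, another EGR factor, exceeded 32 in WT replicate 1 alone, at 112.2.

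Of 16 other AP-1 and ATF factors, 14 had a probe and 10 a probe above 32, with 6 of 14 tested probes positive and a median of -0.045. Atf2, which pairs with JUN at the Jun promoter, had the smallest p, on 1 of its 5 probes, with 17.7, 2.3 and -16.7 in the WT arrays against 130.9, 0.1 and 68.5 in the Klf4-deficient arrays. That probe exceeded 32 on 2 of 3 Klf4-deficient arrays and on no WT array, and its floored difference was 1.04 (log2, limma adjusted p = 0.71). It was 0.55 without Klf4-deficient replicate 1 and 1.57 without replicate 2.

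The list of 28 other early response genes held 18 genes above the floor, with 9 of 23 tested probes positive and a median of -0.18. Gadd45g, a small protein of the growth arrest and stress response, had 2 probes that separated the groups in opposite directions. Probe ILMN_2903945 read 50.6, 51.2 and 82.5 in the WT arrays against 447.3, 329 and 88.5 in the Klf4-deficient arrays, a difference of 1.98 ± 0.68 (log2, SE). Probe ILMN_2744890 read 48.6, 72.2 and 59.4 in the WT arrays against -7.1, -1.1 and -4.9 in the Klf4-deficient arrays, at least 1.85-fold higher in WT. Both are annotated to NM_011817, and neither passed the test (limma adjusted p = 0.71), so no direction can be given for Gadd45g. Sgk1, a serum-induced kinase, read 95.6, 208.5 and 91.2 in the WT arrays against 90, 23 and 17.1 in the Klf4-deficient arrays, a difference of -1.43 ± 0.57 (limma adjusted p = 0.71). Ier3, singled out after its values were seen, read -4.1, 57.7 and 6.7 in the WT arrays against 451.8, 5.7 and 298.7 in the Klf4-deficient arrays, so that like Dusp1 it was high in Klf4-deficient replicates 1 and 3 and lower in replicate 2.

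Among 18 other feedback genes of the TIS11, dual specificity phosphatase, Sprouty and NAB families, 11 were above the floor, with 10 of 16 tested probes positive and a median of 0.31. None separated the groups. Spred1, an inhibitor of RAS signalling, had the smallest p (0.78 ± 0.52 log2, SE, limma adjusted p = 0.71). It exceeded 32 in 1 WT and 2 Klf4-deficient arrays and ranged from 0.26 when Klf4-deficient replicate 3 was left out to 1.22 when replicate 1 was.

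Of 31 genes that signal to the immediate early promoters, 23 had a probe and 20 a probe above 32, with 20 of 42 tested probes positive and a median of -0.074. The groups did not overlap on 2 probes, both higher in Klf4-deficient arrays. Map2k4, a kinase upstream of JNK, read 163.8, 120 and 2.5 in the WT arrays against 438.1, 452.5 and 960.1 in the Klf4-deficient arrays, a difference of 2.75 ± 0.73 (log2, SE, limma adjusted p = 0.71). Its second probe had a single array above 32 in each group. Srf, the serum response factor that binds immediate early promoters, read 165.6, 570 and 0.5 in the WT arrays against 796.1, 808 and 594.8 in the Klf4-deficient arrays on ILMN_2988299. That difference was 2.33 ± 1.07 (log2, SE, limma adjusted p = 0.71), and a second Srf probe lay below 32 throughout. WT replicate 3 was the lowest array on both Map2k4 and Srf; without it the differences were 2.04 and 1.24.

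Heat shock genes, which often respond to the same stresses, gave 9 of 13 tested probes positive and a median of 0.16. The inducible genes Hspa1a and Hspa1b lay below 32 on every probe and array. Hspd1, a mitochondrial chaperone, separated the groups on 1 of its 2 probes, with 308.1, 323.5 and 52.8 in the WT arrays against 614.2, 630.8 and 507.9 in the Klf4-deficient arrays. Its difference of 1.74 ± 0.77 (log2, SE, limma adjusted p = 0.71) was 0.88 without WT replicate 3.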

How the data were processed

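The authors deposited an intensity for each probe and array on a linear scale. The submitters' processing notes name BeadStudio, and the sources used here do not give its version, background method or normalization. In the deposited intensities 45.3% to 45.6% of each column were 0 or negative, which shows background subtraction, and the sorted columns agreed within 5% or 0.15 at 95.4% of the ranks, so the arrays had been put on one scale, which hides differences in total RNA.

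Values below 32 were set to 32 and log2 was taken, so that a fold against the floor is a lower bound only where every array of the brighter group exceeded it. Each probe above 32 on at least 1 array was fitted with limma 3.58.1 (lmFit, eBayes; R 4.3.3) for Klf4-deficient against WT, with Benjamini-Hochberg adjustment over the 18270 probes and a threshold of 0.05. Non-overlap was counted on floored values. The fit was tested on simulated data. Genes came from the platform annotation: 34885 probes had a single symbol, 18 several and 10378 none listed. All members were named, with Klf4, up to 3 probes per pathway list with non-overlapping groups (otherwise the 1 with the smallest p), the 3 probes most like Egr1, and defining cell type markers where they bore on a result. Egr2 and Ier3 were named after their values were seen, and some genes as below the floor. The members and lists were chosen with earlier results of these data known. Same-numbered arrays were checked for pairing. Probe sequences and positions were not used here.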

Additional observations from a re-analysis of the deposited data

How the results depend on the processing

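Over 17 alternatives 90 member differences kept their sign and 3 turned, and none passed the threshold. Leaving out 1 array at a time moved Junb on ILMN_1220034 between -0.85 and 0.054, the latter without WT replicate 3, and Zfp36 between -0.013, without Klf4-deficient replicate 3, and 0.52. Zfp36 was -0.076 when, in place of the floor of 32, 16 was added to each value and results below 16 were set to 16. The count of member probes called was 0 under every alternative. The count over all probes was 0 with limma as reported and 1 with all probes kept, with the ordinary t statistic and with probes averaged by gene, each time the unnamed probe ILMN_2944601; leaving out 1 array at a time gave 0 to 0. An unadjusted p under 0.05 was reached by 175 probes with trend and robust eBayes, 552 with a floor of 16, 693 with the offset, 246 with a floor of 64, 239 with the ordinary t statistic and 247 with all probes kept or with probes above 32 on at least 3 arrays. Without 1 array it was reached by 449 to 809 probes, and without WT replicate 3 the split turned to 180 higher and 352 lower, from 266 and 105. The median difference of all probes was 0.055 without WT replicate 3 and 0.22 over probes above 32 on at least 3 arrays, against -0.055. Same-numbered arrays deviated together with r of 0.03 to 0.04 across probes, against -0.029 to -0.008 for differently numbered arrays. These values were all small and do not exclude pairing, and the replicate numbers were not taken as pairs in the main fit. With the replicate block 0 probes and 0 member probes were called, 362 stood under an unadjusted p of 0.05, and the Egr1 difference was 1.58 ± 0.34. The low signal limits Fosb, Jun, Jund, Ier2 and Atf3, for which no difference could be measured. No alternative gave a value for Fos without WT replicate 2, or for Junb on ILMN_1254833 with a floor of 64 or without Klf4-deficient replicate 1, since no array then exceeded the floor; probes above 32 on at least 3 arrays included no member other than Egr1 and Dusp1.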
